A study of Mus musculus with 16 samples.

Results

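The kinetochore and spindle checkpoint genes code for the proteins that join chromosomes to the spindle in mitosis and delay anaphase until every chromosome is attached. The set was a list of 39 gene symbols. They were chosen by name and by no rule on measured values, but with earlier results of these data known. Members of the set were the array probes annotated with one of these symbols. Of the 39 genes, 33 had a named probe among 16593 named genes on the array, and 27 were measured, all of them detected above background on each of the 16 arrays. Of the remaining 6 with a probe, Cenpc1, Cenpe, Cenpo, Nuf2 and Bub1 were detected on 0 arrays and Ska1 on 1 array, so no level or change is given for them. Cenpf, Cenpl, Zwint, Knl1, Kntc1 and Oip5 had no named probe and were not analysed here.

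The RNA came from a primary tumor cell culture of the mouse model of alveolar rhabdomyosarcoma (aRMS), a skeletal muscle cancer driven by the Pax3:Foxo1a fusion. All 6 groups shared the genotype Myf6Cre, Pax3:Foxo1a and p53 conditional, in which Cre is expressed from the muscle gene Myf6, and they differed in the transfected siRNA and in DNA content. In siYFP cells the fusion transcript, which carries eYFP as its second cistron, was targeted with 10 nM siYFP, and control cells received a negative control siRNA. Cells were then sorted by DNA content into 2N (G1/G0), 3N (S) and 4N (G2/M) fractions. The siYFP groups and the control groups had 3 arrays each in 2N and 4N cells, from experiments 1 to 3, and 2 arrays each in 3N cells, from experiments 1 and 2. The siYFP siRNA was 1 sequence, so a response to the duplex itself and loss of Pax3:Foxo1a cannot be told apart in any comparison of siYFP with control. Nothing in the sources used here says that the experiments came from separate tumors, so p-values measure the spread between experiments only.

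At the centromere, Cenpa replaces histone H3 in the nucleosomes that mark where the kinetochore forms, and the constitutive centromere-associated proteins bind to it as the inner kinetochore. The outer kinetochore, made of the Mis12, Ndc80 and Ska complexes, holds the microtubule. While a kinetochore is unattached, the checkpoint kinase Ttk (also called Mps1) and the Mad and Bub proteins hold back Cdc20, the activator of the anaphase-promoting complex. Many of these genes are transcribed in G2 and mitosis, and their promoters are known targets of the DREAM and B-Myb complexes, which bind a CHR element (cell cycle genes homology region), commonly with CCAAT boxes for the factor NF-Y nearby.

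Promoter windows of 300 bases (250 before and 50 after the transcription start, RefSeq, build GRCm38.p6) were found for 35 of the 39 genes. The 4 genes with the largest difference between 4N and 2N control cells are shown first, because they carry the main pattern below. Capitals mark the letters searched, on both strands. The CHR was searched under the spelling TTTGAA and under the spelling TTTAAA, and the box of NF-Y as CCAAT. The site of E2F, a factor of genes induced at the start of S phase, was searched under the spelling TTTCGCG, under the spelling TTTGGCG and under the spelling TTTCCCG. On the reverse strand a CHR can appear as TTCAAA, whereas the NF-Y box appears as ATTGG. The spelling TTTAAA reads the same on both strands and was counted once.
Spc25 promoter, chr2:69206164-69206463, minus strand: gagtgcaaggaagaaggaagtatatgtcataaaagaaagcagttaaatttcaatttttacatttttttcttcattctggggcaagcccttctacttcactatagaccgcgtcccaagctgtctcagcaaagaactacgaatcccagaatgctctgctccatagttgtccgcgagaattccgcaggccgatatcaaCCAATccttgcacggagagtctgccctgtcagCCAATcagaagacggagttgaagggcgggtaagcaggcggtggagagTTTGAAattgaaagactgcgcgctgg
Ttk promoter, chr9:83834439-83834738, plus strand: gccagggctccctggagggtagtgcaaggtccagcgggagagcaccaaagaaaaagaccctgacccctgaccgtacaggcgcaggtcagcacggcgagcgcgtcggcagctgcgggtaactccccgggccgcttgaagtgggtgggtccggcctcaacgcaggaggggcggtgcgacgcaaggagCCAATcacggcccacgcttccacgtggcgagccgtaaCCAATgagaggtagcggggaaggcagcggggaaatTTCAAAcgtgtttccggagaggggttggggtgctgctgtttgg
Ndc80 promoter, chr17:71526808-71527107, minus strand: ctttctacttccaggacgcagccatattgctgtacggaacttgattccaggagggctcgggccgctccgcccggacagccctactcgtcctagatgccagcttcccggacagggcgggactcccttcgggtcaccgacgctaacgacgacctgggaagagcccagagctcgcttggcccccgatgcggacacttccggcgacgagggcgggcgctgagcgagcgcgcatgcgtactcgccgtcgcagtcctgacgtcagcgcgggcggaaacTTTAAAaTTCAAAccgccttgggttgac
Ska3 promoter, chr14:57826114-57826413, minus strand: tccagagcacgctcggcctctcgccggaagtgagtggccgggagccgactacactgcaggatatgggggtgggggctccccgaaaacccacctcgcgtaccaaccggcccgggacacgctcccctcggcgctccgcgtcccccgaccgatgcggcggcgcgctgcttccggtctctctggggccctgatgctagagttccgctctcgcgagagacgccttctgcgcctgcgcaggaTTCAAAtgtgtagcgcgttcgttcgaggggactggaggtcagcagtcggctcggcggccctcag
Each of the 4 windows held a CHR spelling around the start site. It began at base 275 in Spc25, base 258 in Ttk, base 237 in Ska3 and bases 273 and 280 in Ndc80, where the 2 CHR spellings stood next to each other without overlap. Spc25 and Ttk also had 2 CCAAT boxes each before it, whereas Ndc80 and Ska3 had none. The next 4 windows belong to genes that the results return to. Cenpa and Bub1b had their highest mean in 4N cells, Cenpn was lower in siYFP cells, and Cenpb was called in no comparison.
Cenpa promoter, chr5:30666636-30666935, plus strand: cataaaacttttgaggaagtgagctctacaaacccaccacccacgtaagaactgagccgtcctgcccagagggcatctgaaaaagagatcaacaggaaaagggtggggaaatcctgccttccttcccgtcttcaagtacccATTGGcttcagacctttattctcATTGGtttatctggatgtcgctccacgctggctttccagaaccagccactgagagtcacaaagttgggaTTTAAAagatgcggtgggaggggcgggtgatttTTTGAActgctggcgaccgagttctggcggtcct
Bub1b promoter, chr2:118597961-118598260, plus strand: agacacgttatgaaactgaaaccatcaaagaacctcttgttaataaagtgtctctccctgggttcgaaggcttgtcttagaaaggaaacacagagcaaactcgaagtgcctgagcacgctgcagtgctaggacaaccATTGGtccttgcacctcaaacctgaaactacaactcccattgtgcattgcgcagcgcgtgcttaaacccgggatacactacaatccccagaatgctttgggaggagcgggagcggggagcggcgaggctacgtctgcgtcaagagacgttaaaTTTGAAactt
Cenpn promoter, chr8:116921490-116921789, plus strand: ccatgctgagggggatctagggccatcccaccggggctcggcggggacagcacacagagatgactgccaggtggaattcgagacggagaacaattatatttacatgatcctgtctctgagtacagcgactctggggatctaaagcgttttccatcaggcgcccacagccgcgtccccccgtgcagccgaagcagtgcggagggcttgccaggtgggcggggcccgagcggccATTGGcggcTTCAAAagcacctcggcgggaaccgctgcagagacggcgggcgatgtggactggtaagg
Cenpb promoter, chr2:131180018-131180317, minus strand: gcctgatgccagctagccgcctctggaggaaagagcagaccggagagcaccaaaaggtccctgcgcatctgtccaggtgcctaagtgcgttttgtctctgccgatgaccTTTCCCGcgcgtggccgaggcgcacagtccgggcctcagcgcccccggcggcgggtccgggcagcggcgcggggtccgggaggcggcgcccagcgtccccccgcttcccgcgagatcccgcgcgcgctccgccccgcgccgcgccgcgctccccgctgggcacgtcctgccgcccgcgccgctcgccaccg
Cenpa held both CHR spellings and 2 CCAAT boxes, Bub1b and Cenpn 1 of each, and Cenpb only the E2F letters. Over the members, TTTGAA occurred in 15 of 35 genes with a window (42.9%), compared with 20.2% of 27025 genes, and TTTAAA in 8 (22.9%), compared with 14.9%. CCAAT occurred in 22 of the 35 (62.9%), compared with 41.1% of all genes, and a CHR spelling together with CCAAT in 14 (40.0%), compared with 12.2%. An E2F spelling occurred in 7 of the 35 (20.0%), compared with 6.38% of all genes. The 35 include genes that were not measured here. In the 24 measured genes with a window, the shares were 41.7% for TTTGAA, 12.5% for TTTAAA and 58.3% for CCAAT. A CHR spelling together with CCAAT was in 29.2% of the 24, and an E2F spelling in 25.0%. TTTAAA was thus no more frequent in measured members than in all genes. By single window, the letters occurred in 17.9% (TTTGAA), 13.2% (TTTAAA), 37.4% (CCAAT) and 5.58% (any E2F spelling) of 32851 windows. The windows shown do not stand for all members. Of 18 measured genes with a window that rose in 4N cells with either siRNA, 10 held a CHR spelling. Cenpi, Cenpp and Ska2 rose without one. Of 6 measured genes not called between 4N and 2N cells, 1 held a CHR spelling and 3 held CCAAT. Matches of short letters are a description of the sequence and not of binding.

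Between 12535 and 13135 of 25697 probes were detected on each, and replicate arrays correlated at 0.988 to 0.994. The Foxo1 probe, for which the sources do not say on which side of the breakpoint it lies, averaged 8.76 in siYFP and 9.47 in control 4N cells on the log2 scale, and 8.45 in siYFP and 9.30 in control 2N cells (limma adjusted p = 0.00502 and 0.00141, n = 3 each). Of the muscle lineage markers, Des, Myog and Chrna1 were detected on all arrays and Myod1, Pax3, Pax7 and Msc on 0, so the tissue label rests on part of its defining markers. Endothelial markers were detected on 0 arrays, as were Ptprc, Itgam and Lyz2 among the immune markers. The epithelial keratins Krt8 and Krt18 and the neural marker Map2 were detected on all arrays.

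The first comparison asked how the genes differ between 4N and 2N cells with the same siRNA. With siYFP, 20 of the 27 measured members rose in 4N cells relative to 2N cells and 0 fell, and with control siRNA 16 rose and 0 fell (limma, Benjamini-Hochberg adjusted p under 0.05). Over all 9146 genes tested, 5.32% were called with siYFP (3.53% higher and 1.79% lower) and 4.8% with control siRNA (2.96% higher and 1.84% lower). The median difference of the members was 1.02 in siYFP and 0.80 in control cells on the log2 scale, where 1 is a doubling of signal, compared with -0.03 and -0.02 over all genes. All 16 genes called in control cells were among the 20 called in siYFP cells, and Cenpk, Dsn1, Nsl1 and Pmf1 passed in siYFP cells alone, which is no test of a difference between the siRNAs. In bulk RNA of sorted cells, fewer cells of a type and less RNA per cell cannot be told apart.

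**Figure D1:**
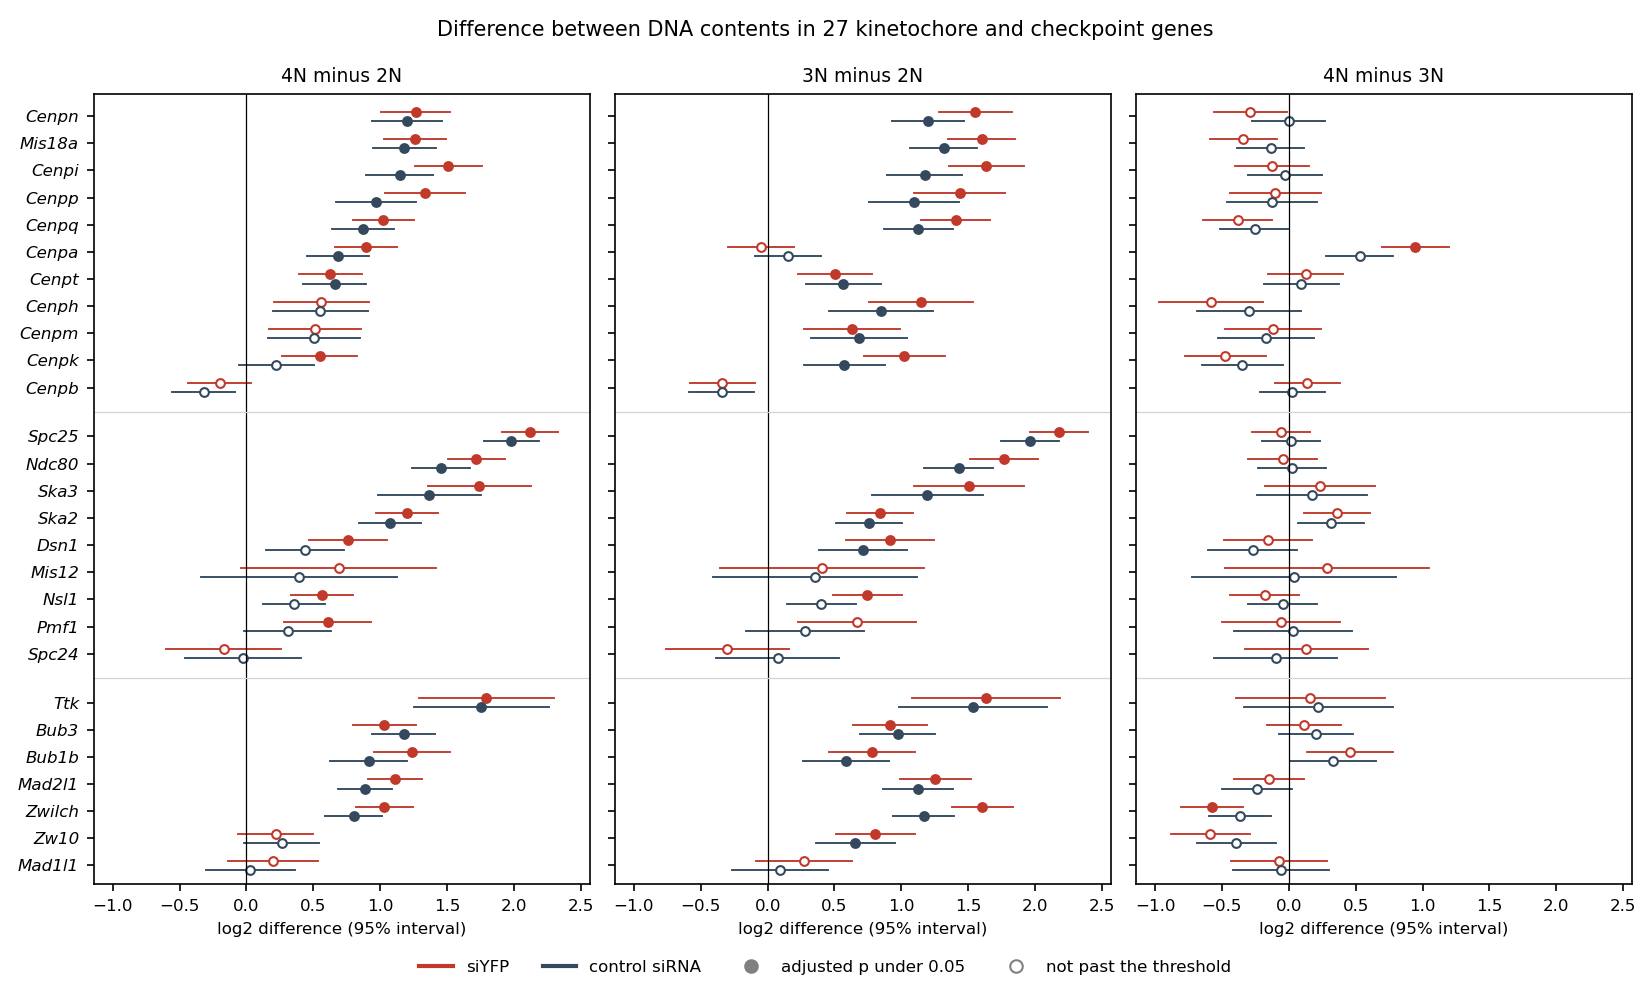
Differences between DNA contents for the 27 measured genes, grouped as inner kinetochore, outer kinetochore and checkpoint from top to bottom. Points are log2 differences in signal, bars their 95% intervals, red is siYFP and dark blue control siRNA, and filled points passed the adjusted threshold. Most members lie right of 0 in the panels against 2N cells, with Spc25 farthest right, and around 0 in the panel of 4N minus 3N cells, where Cenpa stands apart.

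In the inner kinetochore and Cenpa loading group, 8 of 11 measured genes rose in siYFP 4N cells and 7 in control 4N cells. Cenpi, a subunit of the CENP-H/I/K complex, read 9.03, 9.0 and 8.97 in siYFP 4N cells of experiments 1 to 3, against 7.74, 7.45 and 7.29 in siYFP 2N cells. In control cells it read 9.15, 9.05 and 9.29 at 4N, against 8.02, 8.04 and 8.0 at 2N. The difference of Cenpi was 1.51 ± 0.12 (SE) in siYFP cells and 1.15 ± 0.12 in control cells (adjusted p = 3.99e-06 and 5.26e-05). Cenpp, of the CENP-O/P/Q complex, rose by 1.34 ± 0.14 to 9.73, 9.72 and 9.67 in siYFP 4N cells, against 8.48, 8.39 and 8.24 in siYFP 2N cells. In control cells Cenpp read 9.43, 9.43 and 9.40 at 4N, against 8.58, 8.09 and 8.68 at 2N, a difference of 0.97 ± 0.14. Its 4N values lay within a narrow band and its 2N values were the more scattered in both siRNA groups. Mis18a, which helps to load new Cenpa, and Cenpn, which reads the Cenpa nucleosome, rose by 1.26 and 1.27 in siYFP cells and by 1.18 and 1.20 in control cells. Cenpq rose by 1.02 in siYFP and 0.87 in control cells, Cenpa by 0.89 and 0.68, and Cenpt, which links the inner kinetochore to the Ndc80 complex, by 0.63 and 0.66. Cenpk rose by 0.55 in siYFP cells, and its difference of 0.22 in control cells did not pass the test (adjusted p = 0.399). Without the siYFP 2N array of experiment 1 or 2 or the siYFP 4N array of experiment 2 or 3, Cenpk did not pass in siYFP cells either.

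The outer kinetochore held the gene with the largest difference. Spc25, a subunit of the Ndc80 complex, read 11.76, 11.66 and 11.80 in siYFP 4N cells, against 9.50, 9.72 and 9.64 in siYFP 2N cells. In control cells Spc25 read 11.55, 11.72 and 11.66 at 4N, against 9.73, 9.59 and 9.66 at 2N. The difference was 2.12 ± 0.10 in siYFP cells (4.34-fold) and 1.98 ± 0.10 in control cells (3.95-fold), with a gap between 4N and 2N arrays far wider than the spread within either. Ndc80 itself, the subunit that contacts the microtubule, read 11.32, 11.32 and 11.48 in siYFP 4N cells, against 9.58, 9.74 and 9.64 in siYFP 2N cells (3.29-fold, adjusted p = 3.14e-07). In control cells it read 11.40, 11.17 and 11.29 at 4N, against 9.92, 9.73 and 9.86 at 2N (2.74-fold, adjusted p = 1.68e-06). Ska3, of the Ska complex that tracks microtubule ends, read 9.66, 9.84 and 9.67 in siYFP 4N cells, against 7.68, 8.07 and 8.18 in siYFP 2N cells. Control cells had 9.62, 9.62 and 9.82 at 4N, against 7.90, 8.49 and 8.58 at 2N. Ska3 rose by 1.74 ± 0.18 with siYFP and by 1.37 ± 0.18 with control siRNA, and its 2N array of experiment 1 was the lowest in both siRNA groups. Ska2, of the same complex, rose by 1.20 and 1.07. Dsn1, Nsl1 and Pmf1, subunits of the Mis12 complex, rose by 0.76, 0.56 and 0.61 in siYFP cells, and differed by 0.44, 0.35 and 0.31 in control cells without passing the test. The call of Pmf1 was lost without any 1 of the 6 siYFP arrays, and that of Nsl1 without background correction (0.25).

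Of the 7 measured checkpoint genes, 5 rose in 4N cells with either siRNA. Ttk read 8.87, 9.23 and 9.50 in siYFP 4N cells, against 7.17, 7.53 and 7.52 in siYFP 2N cells. In control cells it read 8.98, 9.39 and 9.45 at 4N, against 7.59, 7.01 and 7.94 at 2N. Its differences of 1.79 ± 0.23 and 1.76 ± 0.23 were the second largest of the set in both siRNA groups, with wide spread between experiments. Bub1b (BubR1), Bub3 and Mad2l1, which together with Cdc20 make up the mitotic checkpoint complex, rose by 1.24, 1.03 and 1.11 in siYFP cells and by 0.91, 1.18 and 0.89 in control cells. Zwilch, of the complex that brings dynein to kinetochores, rose by 1.03 and 0.80. Another probe of Zwilch rose by 1.24 in siYFP cells. Its difference of 0.53 in control cells did not pass (adjusted p = 0.209, all detected probes tested). The remaining probe of Zwilch rose by 0.90 and 0.94. Mad1l1, which recruits Mad2l1 to unattached kinetochores, differed by 0.20 in siYFP and 0.03 in control cells, and Zw10, the partner of Zwilch, by 0.22 and 0.26, none past the test.

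**Figure D2:**
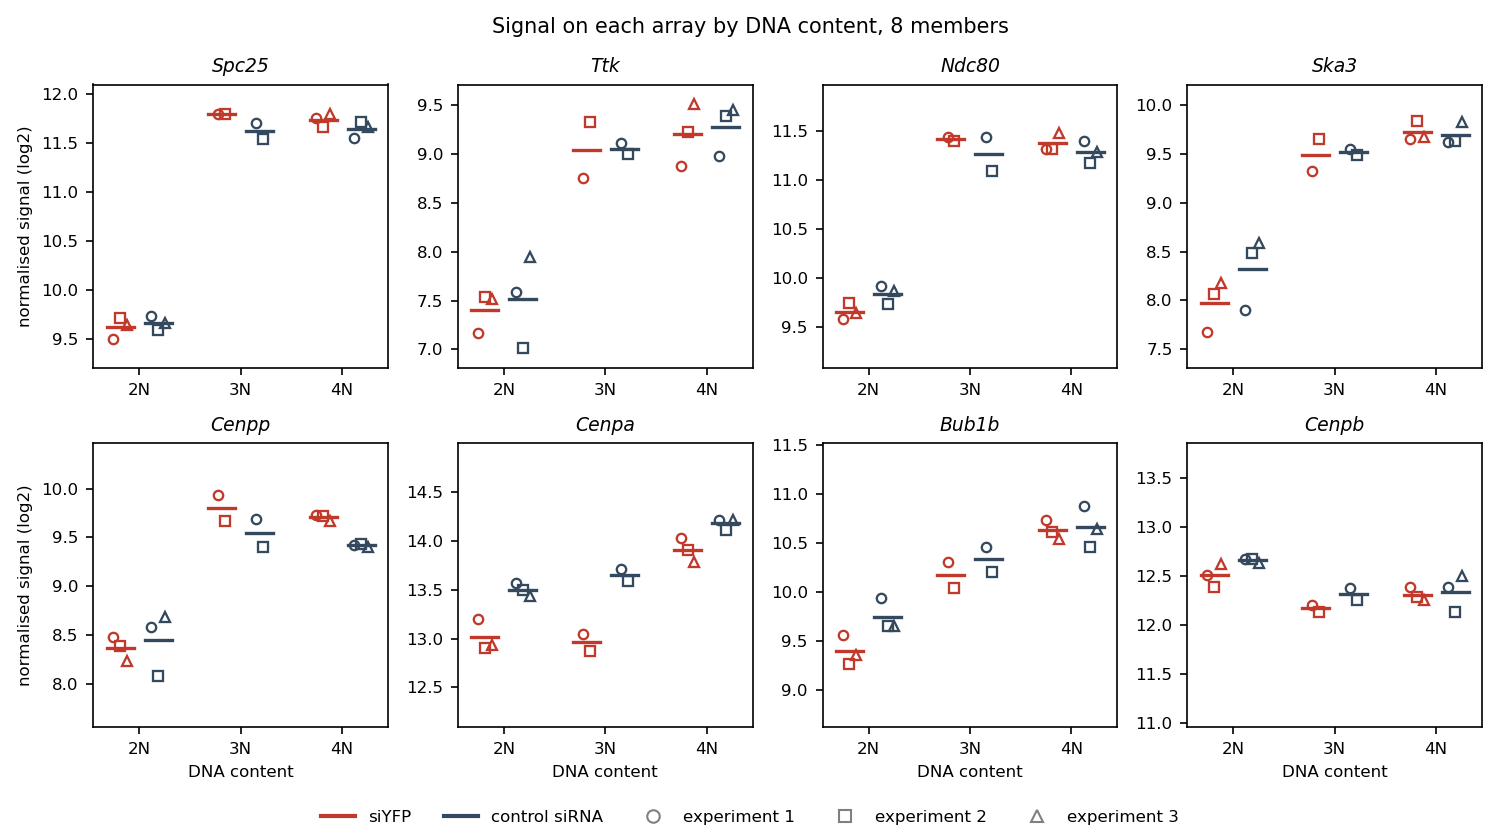
Normalised log2 signal on each array for 8 genes by DNA content, siYFP in red left of control siRNA in dark blue, with a marker for each experiment and a line at the group mean. Each panel spans the same log2 range. Spc25, Ttk, Ndc80, Ska3 and Cenpp are near their 4N level in 3N cells, Cenpa in 3N cells lies near its 2N level, and the Cenpb means lie within 0.34 of each other at each siRNA.

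Cenpb, Spc24 and Mis12 were the 3 measured members called in none of the comparisons. Cenpb, which binds a sequence in centromeric satellite DNA, read 12.39, 12.28 and 12.26 in siYFP 4N cells, against 12.51, 12.39 and 12.63 in siYFP 2N cells. In control cells it read 12.39, 12.14 and 12.50 at 4N, against 12.68, 12.67 and 12.64 at 2N. These differences of -0.20 and -0.32 had the opposite sign to most of the members (adjusted p = 0.363 and 0.126). Spc24, the partner of Spc25, had 2 probes that differed in call. The brighter probe, used for the gene, read 9.44, 9.40 and 9.84 in siYFP 4N cells, against 9.46, 9.60 and 10.13 in siYFP 2N cells, and 9.14, 9.70 and 9.27 in control 4N cells, against 9.20, 9.50 and 9.49 in control 2N cells. These groups overlapped. It averaged 9.56 in siYFP 4N and 9.73 in siYFP 2N cells, whereas the dimmer probe averaged 8.82 and 7.67, a difference of 1.16 ± 0.12 (adjusted p = 6.68e-05, all detected probes tested). In control cells the dimmer probe averaged 8.76 at 4N and 7.93 at 2N, a difference of 0.84 ± 0.12 (adjusted p = 0.00121). Mis12 read 8.31, 8.64 and 8.85 in siYFP 4N cells, against 7.07, 8.33 and 8.33 in siYFP 2N cells, so that its 2N array of experiment 1 was the lowest of all arrays. In control cells Mis12 read 7.88, 8.29 and 8.83 at 4N, against 7.63, 7.86 and 8.33 at 2N, again lowest in experiment 1 (adjusted p = 0.305 in siYFP and 0.608 in control cells). With experiment as a block Mis12 and Cenph passed as well in siYFP cells (adjusted p = 0.0410 and 0.0485).

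For scale, the list of G2/M markers (among them Plk1, Top2a and Aurka) had 9 of 9 measured genes higher in 4N than in 2N cells with either siRNA, with a median difference of 2.59 in siYFP and 2.32 in control cells. Of the G1/S markers, 8 of 9 were lower in siYFP and 9 of 9 in control 4N cells, with medians of -0.94 and -1.27. Other kinetochore genes outside the set had 10 of 17 measured genes higher in siYFP 4N cells and 8 of 17 in control 4N cells, none lower. Among them the dynein adaptor Spdl1 rose by 1.77 and 1.54 and Cdc20 by 1.69 and 1.51.

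The 3N fraction was compared with 2N cells over the 16 arrays. With siYFP, 21 of 27 members rose in 3N cells relative to 2N cells and 0 fell, and with control siRNA 20 rose and 0 fell. Among all 9306 genes tested, 6.1% were called with siYFP (3.77% higher and 2.33% lower) and 4.81% with control siRNA (3.27% higher and 1.55% lower). The median difference of the members was 0.92 in siYFP and 0.76 in control cells, compared with -0.03 and -0.02 over all genes. These comparisons share their 2N arrays with those of 4N cells. Spc25 read 11.80 and 11.80 in siYFP 3N cells and 11.71 and 11.54 in control 3N cells, differences of 2.18 ± 0.10 and 1.96 ± 0.10 against 2N cells. In the inner kinetochore, Cenpi rose by 1.64 in siYFP and 1.17 in control 3N cells, Mis18a by 1.6 and 1.32, Cenpn by 1.55 and 1.20, Cenpp by 1.44 and 1.095, Cenpq by 1.41 and 1.13, Cenpk by 1.02 and 0.57, and Cenpt by 0.50 and 0.57. In the outer kinetochore, Ndc80 rose by 1.77 and 1.43, Ska3 by 1.51 and 1.19, Dsn1 by 0.91 and 0.71, and Ska2 by 0.84 and 0.76, and Nsl1 rose by 0.75 in siYFP cells, with a difference of 0.40 in control cells (adjusted p = 0.0779). Among the checkpoint genes, Ttk rose by 1.63 and 1.54, Zwilch by 1.61 and 1.17, Mad2l1 by 1.25 and 1.13, Bub3 by 0.92 and 0.97, and Bub1b by 0.78 and 0.58. Another probe of Zwilch rose by 1.56 in siYFP cells. Its difference of 0.71 in control cells did not pass (adjusted p = 0.0968, all detected probes tested). The dimmer probe of Spc24 rose by 1.39 and 1.08 (adjusted p = 6.06e-06 and 0.000116). With experiment as a block Pmf1 passed as well in siYFP 3N cells (0.66, adjusted p = 0.0106). Cenph, Cenpm and Zw10 passed the test against 2N cells at 3N with both siRNAs, and at 4N with neither in the fit without the block, where Cenph passed with siYFP with the block and another probe of Cenpm rose by 0.61 (adjusted p = 0.0114). With the probes used, their 4N and 3N cells did not differ past the test in that fit. Another probe of Zw10 did, at -0.52 in siYFP cells (adjusted p = 0.0481, all detected probes tested). The remaining probe of Zw10 differed by -0.71 and was not called (adjusted p = 0.186). Cenph, of the CENP-H/I/K complex, rose by 1.14 in siYFP and 0.85 in control 3N cells, Cenpm by 0.63 and 0.68, and Zw10 by 0.80 and 0.66. In control 3N cells another probe of Cenpm and another of Zw10 differed by 0.51 and 0.62 and did not pass (adjusted p = 0.122 and 0.138). In control cells Cenph lost its call without the 3N array of experiment 1, Zw10 without that of experiment 2, and Cenpm without either of them or the 2N array of experiment 1 or 3, and Bub1b, Cenpk, Cenpt and Dsn1 lost theirs without at least 1 array. In siYFP cells Cenpm, Cenpt and Bub1b did so. With experiments 1 and 2 only, 14 of the 20 calls of control cells remained, without Bub1b, Cenpk, Cenpm, Cenpt, Dsn1 and Zw10, and 2.59% of all genes were called.

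**Figure D3:**
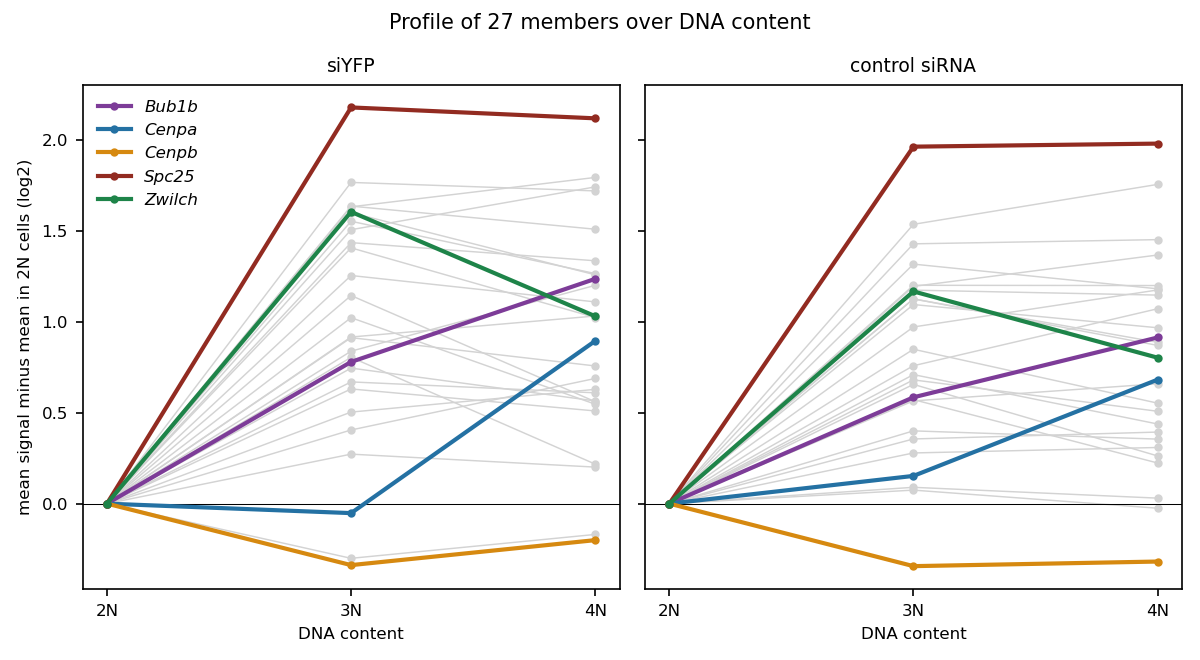
Mean log2 signal of the 27 measured genes in 2N, 3N and 4N cells relative to their 2N mean, for siYFP (left) and control siRNA (right). Grey lines are the other members. Spc25 reaches its 4N level in 3N cells, the Zwilch mean is highest in 3N cells and the Bub1b mean in 4N cells, and Cenpa is near its 2N level in 3N cells and higher in 4N cells.

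For members whose 4N and 2N means differed by at least 0.5 on the log2 scale, the share of the difference between 4N and 2N means that was present in 3N cells had a median of 108% over 23 genes in siYFP cells and 99.6% over 18 genes in control cells. The highest mean lay in 3N cells for 17 of 27 genes with siYFP and for 15 with control siRNA. Cenpa differed from this pattern. It read 13.20, 12.91 and 12.93 in siYFP 2N cells, 13.05 and 12.87 in siYFP 3N cells and 14.03, 13.91 and 13.78 in siYFP 4N cells. In control cells Cenpa read 13.57, 13.49 and 13.43 at 2N, 13.71 and 13.59 at 3N, and 14.21, 14.11 and 14.21 at 4N. Thus the 3N cells had the 2N level of Cenpa with siYFP and 22.4% of the rise with control siRNA. Bub1b had 63.1% of its 4N rise in siYFP 3N cells and 64.0% in control 3N cells, and Ska2 69.8% and 70.8%.

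Set directly against each other, 4N and 3N cells differed in 2 members with siYFP (0.978% of all genes called, 0.333% higher and 0.645% lower) and in 0 members with control siRNA (0.763% of all genes called, 0.344% higher and 0.419% lower). With siYFP, Cenpa was higher in 4N than in 3N cells by 0.95 ± 0.12 (adjusted p = 0.00166) and Zwilch lower by 0.57, at 7.74, 7.83 and 7.64 in 4N cells against 8.28 and 8.34 in 3N cells (adjusted p = 0.0180). The other 2 probes of Zwilch both differed by -0.32 and were not called (adjusted p = 0.726 and 0.649). In control cells the lowest adjusted p by limma was 0.0521, for Cenpa (0.53 ± 0.12). With experiment as a block, Cenpa passed in control cells (adjusted p = 0.00983), and Bub1b and Zw10 in siYFP cells, at 0.48 and -0.57 (adjusted p = 0.0149 and 0.0180). Without the siYFP 3N array of experiment 2 neither Cenpa nor Zwilch passed in siYFP cells, and Zwilch also lost its call without the siYFP 3N array of experiment 1 or the siYFP 4N array of experiment 1 or 3.

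The next comparison set siYFP against control cells at the same DNA content, which asked what the knockdown did to these genes. In 2N cells 1 member was higher and 6 were lower with siYFP, a share of 25.9% called, compared with 21.4% of all genes (10.9% higher and 10.4% lower). The median difference of the members was -0.13, compared with -0.01 over all genes. In 3N cells 1 was higher and 1 lower (12.9% of all genes called, 6.46% higher and 6.47% lower), and in 4N cells 2 were higher and 1 lower (19.1% of all genes called, 9.83% higher and 9.26% lower). In 3N cells the members' median difference was -0.01 and in 4N cells it was -0.0039, compared with -0.01 and -0.0094 over all genes. With experiment as a block, 6 members were called in 4N cells, compared with 25.1% of all genes.

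**Figure D4:**
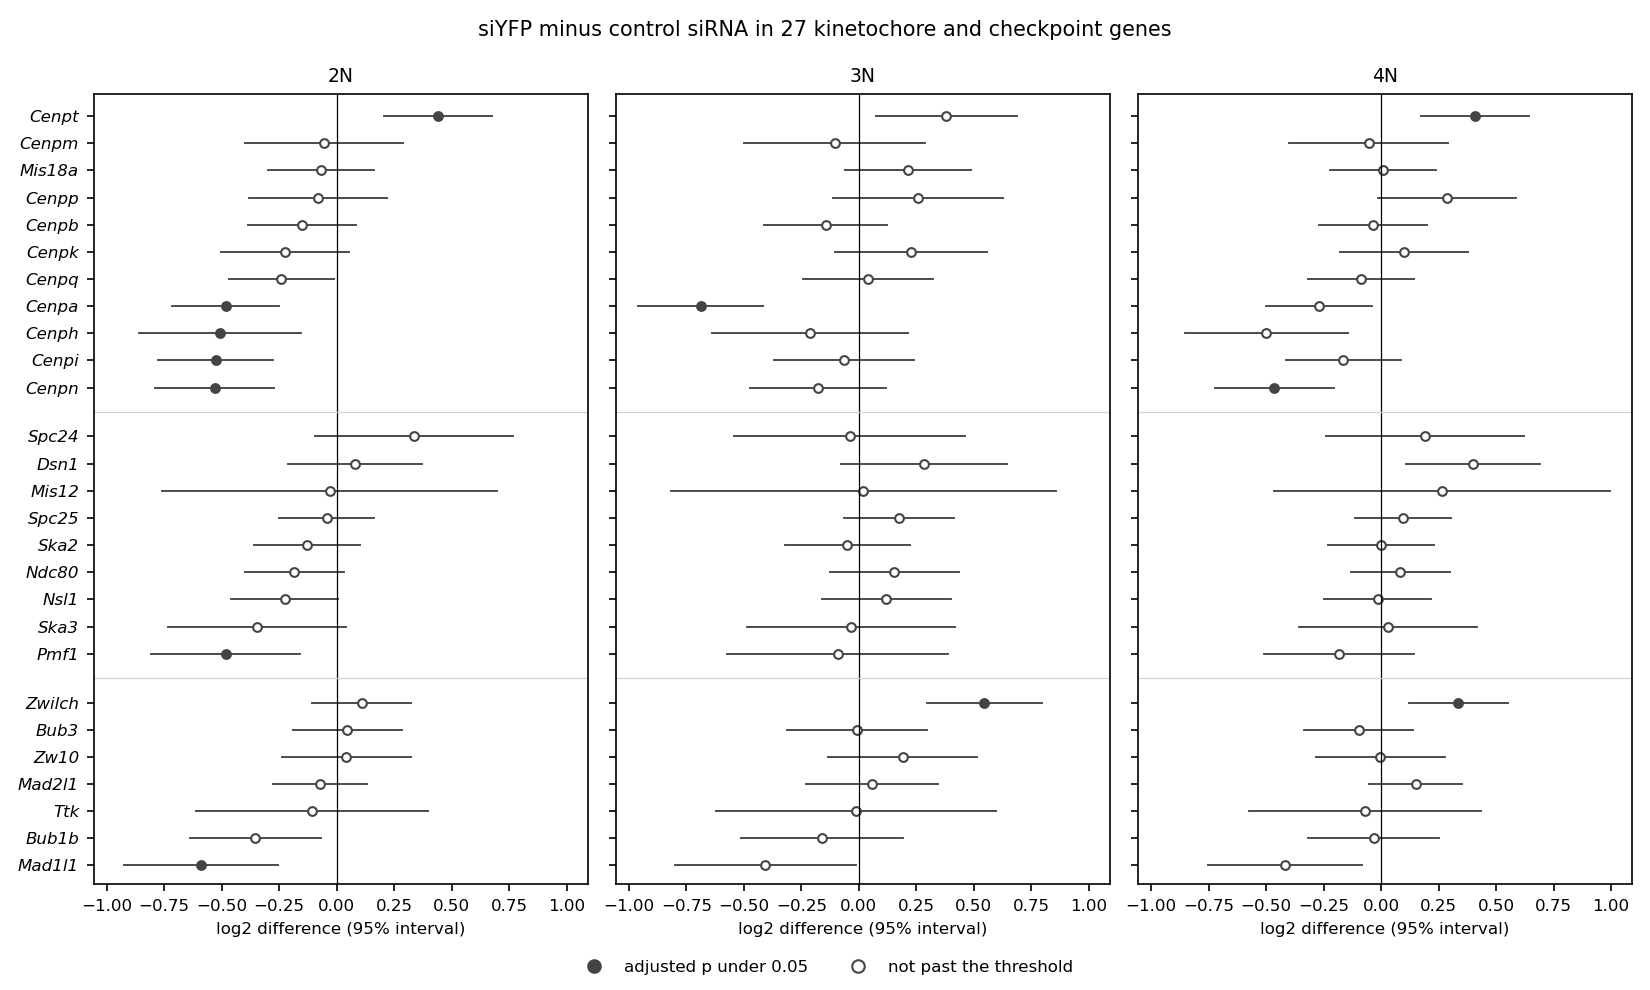
Difference of siYFP minus control siRNA for the 27 measured genes in 2N, 3N and 4N cells, in the order inner kinetochore, outer kinetochore and checkpoint. Points are log2 differences with 95% intervals, filled where the adjusted threshold was passed. In 2N cells 6 called members lie left of 0 and Cenpt right of it, and in 4N cells the points called are Cenpn, Cenpt and Zwilch.

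In siYFP 2N cells 4 of 11 measured genes of the inner kinetochore and Cenpa loading group were lower and 1 was higher. In the outer kinetochore 1 of 9 measured genes was lower, and among checkpoint genes 1 of 7. Over all genes 10.4% were lower. A difference between these groups of genes was not tested. Cenpa read 13.20, 12.91 and 12.93 in siYFP 2N cells, against 13.57, 13.49 and 13.43 in control 2N cells (-0.48 ± 0.11, adjusted p = 0.00693). In 3N cells Cenpa read 13.05 and 12.87 with siYFP, against 13.71 and 13.59 with control siRNA (-0.69 ± 0.13, adjusted p = 0.00249). The siYFP and control arrays did not overlap at either DNA content, which was also so for 36.3% of all genes in 2N cells, 53% in 3N cells with 2 arrays a group, and 37.1% in 4N cells. In 4N cells Cenpa differed by -0.27 ± 0.11 (adjusted p = 0.10), and passed with experiment as a block (adjusted p = 0.0423).

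Cenpn was lower with siYFP in both 2N and 4N cells, as were Cenpa, Cenph and Mad1l1 when experiment was a block. It read 9.60, 9.61 and 9.71 in siYFP 2N cells, against 10.26, 10.08 and 10.18 in control 2N cells (-0.53 ± 0.12, adjusted p = 0.00764). In 4N cells Cenpn read 11.06, 10.88 and 10.79 with siYFP, against 11.51, 11.13 and 11.49 with control siRNA (-0.47 ± 0.12, adjusted p = 0.0171). Its second probe fell by 0.45 in 2N and by 0.48 in 4N cells. In 3N cells the values of 11.19 and 11.20 with siYFP, against 11.46 and 11.29 with control siRNA, did not pass (adjusted p = 0.472).

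Cenph and Cenpi fell in siYFP 2N cells, whereas the difference of Cenpk, of the same complex, was -0.22 and did not pass (adjusted p = 0.245). Cenph read 8.85, 9.21 and 9.28 with siYFP, against 9.77, 9.31 and 9.78 with control siRNA (-0.51 ± 0.16, adjusted p = 0.0433), and Cenpi 7.74, 7.45 and 7.29, against 8.02, 8.04 and 8.0 (-0.53 ± 0.12, adjusted p = 0.00673). In experiment 2 the 2 values of Cenph were close together. In 4N cells Cenph differed by -0.50 ± 0.16 (adjusted p = 0.0502, and 0.0368 with experiment as a block), with 9.62, 9.78 and 9.62 with siYFP, against 10.13, 9.97 and 10.41 with control siRNA. Cenpi differed there by -0.16 ± 0.12 (adjusted p = 0.368).

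Cenpt moved the other way from those inner kinetochore genes. It read 10.73, 10.87 and 10.88 in siYFP 2N cells, against 10.37, 10.48 and 10.31 in control 2N cells (0.44 ± 0.11, adjusted p = 0.0123). In 4N cells Cenpt read 11.39, 11.37 and 11.61 with siYFP, against 11.08, 11.17 and 10.88 with control siRNA (0.41 ± 0.11, adjusted p = 0.0194). All siYFP values were above all control values at both DNA contents. In 3N cells they were 11.32 and 11.34, against 10.75 and 11.15 (0.38 ± 0.14, adjusted p = 0.103).

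In the outer kinetochore Pmf1, a subunit of the Mis12 complex, was called in 2N cells, also with experiment as a block (adjusted p = 0.0111). It read 7.08, 7.08 and 7.05 in siYFP 2N cells, against 7.79, 7.34 and 7.52 in control 2N cells (-0.48 ± 0.15, adjusted p = 0.0371), with more spread in the control arrays. Dsn1, of the same complex, read 9.61, 9.56 and 9.54 in siYFP 4N cells, against 9.38, 9.01 and 9.13 in control 4N cells. All its siYFP arrays were above its control arrays (0.40 ± 0.13, adjusted p = 0.0566), and it passed without background correction, with an offset of 50, in the authors' processed values and among probes detected on every array. Spc25 and Ndc80, which rose most in 4N cells among outer kinetochore genes of control cells, did not pass the test between the siRNAs. Spc25 differed by 0.10 in 4N (95% interval -0.11 to 0.30) and by -0.04 in 2N cells, and Ndc80 by 0.08 (-0.13 to 0.30) and -0.18.

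Among checkpoint genes Mad1l1 fell in siYFP 2N cells, at 7.50, 7.46 and 7.88, against 8.28, 7.97 and 8.36 in control 2N cells (-0.59 ± 0.15, adjusted p = 0.0173). Its differences of -0.41 in 3N and -0.42 in 4N cells did not pass (adjusted p = 0.172 and 0.0800), and did with experiment as a block (adjusted p = 0.0426 and 0.0184). Zwilch was higher with siYFP in 3N cells, at 8.28 and 8.34, against 7.67 and 7.86 in control 3N cells (0.55 ± 0.12, adjusted p = 0.00664). In 4N cells Zwilch read 7.74, 7.83 and 7.64 with siYFP, against 7.39, 7.52 and 7.29 with control siRNA (0.34 ± 0.10, adjusted p = 0.0323). Its other 2 probes had differences of 0.24 and 0.16 in 4N and of 0.38 and 0.26 in 3N cells and were not called, and one of them differed by -0.47 in 2N cells, where the probe used differed by 0.11. Ttk differed by -0.11 in 2N, -0.01 in 3N and -0.07 in 4N cells, with 95% intervals of -0.61 to 0.40 in 2N and -0.57 to 0.43 in 4N cells, and Bub1b by -0.36 in 2N cells (adjusted p = 0.0751, and 0.0104 with experiment as a block).

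**Figure D5:**
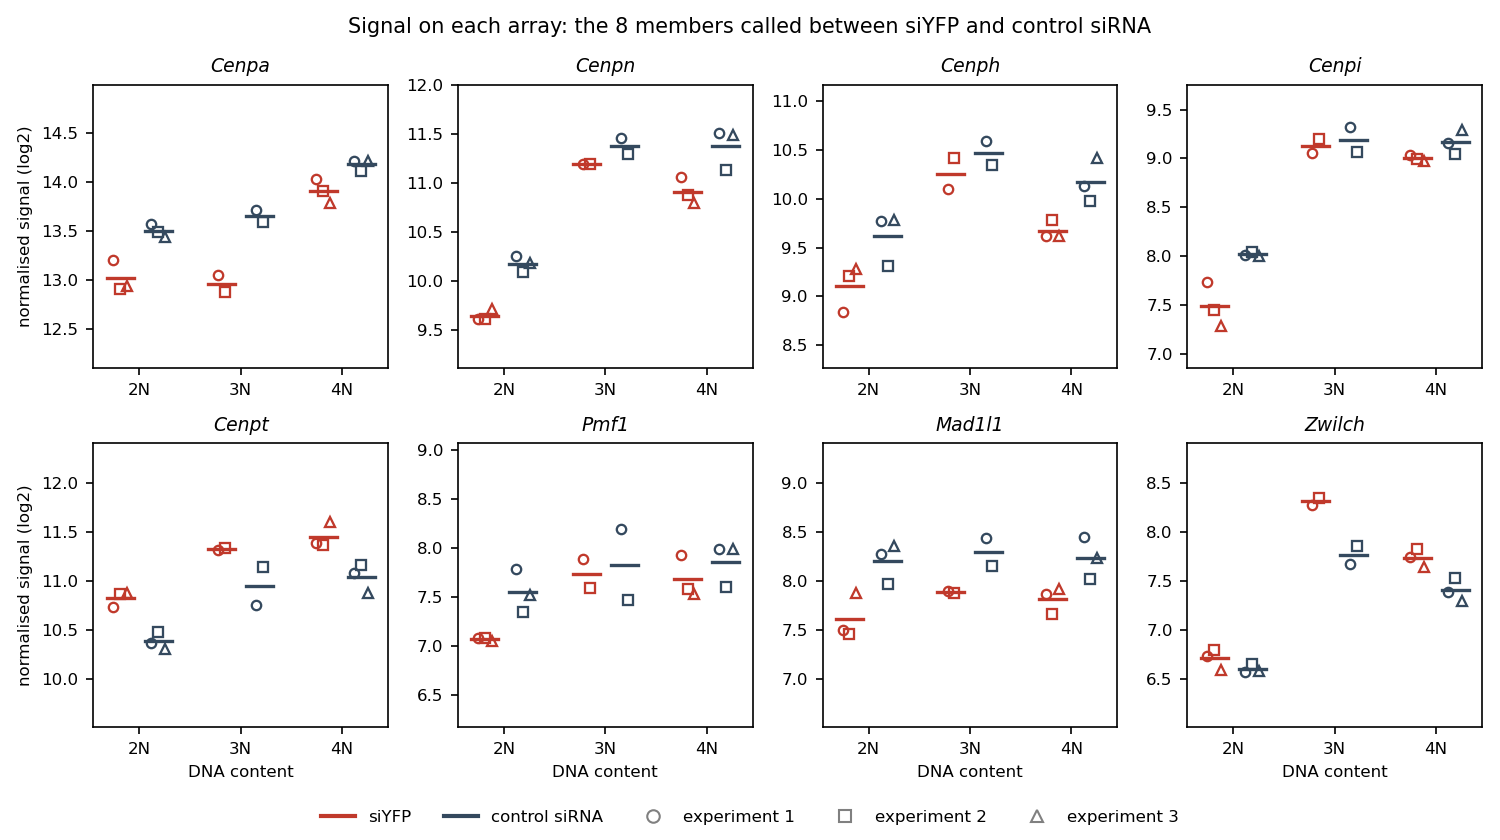
Normalised log2 signal on each array for the 8 members called between siYFP (red, left of each pair) and control siRNA (dark blue) in at least one DNA content, with a marker for each experiment and a line at the group mean. Cenpa, Cenpn, Cenph, Cenpi, Pmf1 and Mad1l1 lie lower with siYFP in 2N cells, whereas Cenpt lies higher.

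Cell cycle markers also differed between siYFP and control cells. In siYFP 2N cells 4 of 9 G2/M markers were lower than in control 2N cells (Plk1, Top2a, Cdk1 and Tpx2) and 0 higher, with a median of -0.38, and 3 of 9 G1/S markers were lower (Cdc6, Ccne2 and Mcm5) and 0 higher, with a median of -0.28. In 4N cells 1 of 9 G2/M markers was lower and 1 of 9 G1/S markers higher, with medians of -0.19 and 0.09. In 3N cells 1 of 9 G2/M markers was lower and 1 of 9 G1/S markers higher, with medians of -0.14 and 0.30. The members' medians were -0.0039 in 4N and -0.01 in 3N cells, so they did not share the marker shifts there. The part of these shifts in the members' values was not tested. Markers of cell types moved with siYFP as well. The muscle lineage markers (9 of 10 had a probe), as the log2 of their summed signal, were at 11.88 to 12.21 in siYFP and 12.29 to 12.71 in control 2N cells, and 11.94 to 12.12 in siYFP and 12.35 to 12.73 in control 4N cells. Of the 4 muscle markers measured, 1 was higher (Des, 0.52 in 2N and 0.61 in 4N cells) and 1 lower (Chrna1, -0.65 and -0.53). Of 3 epithelial markers measured, 1 was called in 2N and in 4N cells, Cdh1, higher by 1.11 and 1.5, whereas Krt8 and Krt18 differed by 0.25 and -0.27 in 2N cells without passing. Of the immune markers 1 was measured, the T cell gene Cd3e, which was higher by 0.76 in siYFP 4N cells, at a mean of 6.20 in siYFP and 5.44 in control cells. Of 2 neural markers measured, 1 was higher in siYFP 2N cells and 0 were called in 4N cells. The part of these markers in the result was not tested. Of 17 other kinetochore genes measured, 1 was higher and 3 lower in siYFP 2N cells, and 1 higher and 2 lower in siYFP 4N cells. These are shares of 23.5% and 17.6%, near the 21.4% and 19.1% of all genes called. Spdl1 was lower by 0.56 in 2N and by 0.33 in 4N cells, Nup160, a nucleoporin that also sits at kinetochores, by 0.65 and 0.44, and Cdc20 by 0.28 in 2N cells, whereas Ndel1, a dynein cofactor, was higher by 0.26 and 0.32.

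Of the 3 calls in 4N cells, 0 remained without the control 4N array of experiment 3, 1 (Cenpt) without the siYFP 4N array of experiment 2, and 1 (Zwilch) without that of experiment 3, and with experiment as a block 6 members were called (2 higher and 4 lower). Cenpn and Zwilch also lost their calls in 4N cells without the control array of experiment 1, and Zwilch without the siYFP array of experiment 1, with median scaling, without background correction and in the authors' processed values. In 2N cells Cenph, Mad1l1 and Pmf1 lost their calls without the siYFP array of experiment 1 or 2 or the control array of experiment 1 or 3, which left 4 of 7, and Pmf1 also without the siYFP array of experiment 3, without background correction and in the fit of all 16 arrays. With no filter on dim probes neither Pmf1 nor Cenph passed. Cenpt in 2N cells did not pass with median scaling (0.31, adjusted p = 0.0626). In 3N cells Zwilch lost its call without the control array of experiment 1 or the siYFP array of experiment 2.

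The last comparison asked whether the siYFP effect differed between 4N and 2N cells. The difference of the 2 effects passed the test in 0 of 27 members and in 0 of 9146 genes (0% called), and 1 member, Cenpi (0.36 ± 0.16), had an unadjusted p under 0.05 by limma, as did 293 of all genes. The difference was positive in 23 of 27 members, with a median of 0.17, compared with 0.00 over all genes. This sign was not particular to the members. Positive differences were found in 15 of 17 other kinetochore genes, 7 of 9 G2/M markers and 9 of 9 G1/S markers. Their medians were 0.12, 0.16 and 0.37. Since no member passed this test, the siYFP effects called in 2N and not in 4N cells without the block are not shown to differ between the 2 DNA contents. These were the effects on Cenpa, Cenph, Cenpi, Mad1l1 and Pmf1.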

How the data were processed

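The members, gene lists and motifs were chosen with earlier results of these data known. RNA of 16 samples had been hybridised to 1-colour Illumina MouseRef-8 v2 BeadChips, 1 array per sample. The authors deposited GenomeStudio probe signals as a linear intensity before normalization, and an intensity table quantile normalized over the arrays, from which the same signals quantile normalized here differed by at most 0.0327 on the log2 scale. Detection values were deposited as a fraction equal to 1 minus the detection p. The sources used here do not give probe positions, slides or a genome build.

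Signals were background corrected with normexp from the detection values (offset 16), taken to log2 and quantile normalized (limma 3.58.1, R 4.3.3). Probes with detection p under 0.05 on at least 3 arrays of a fit were kept, and the brightest probe of a gene stood for it, so signal levels were not compared between genes. Group means were fitted with limma over 12 arrays (2N and 4N, 9146 genes) or 16 arrays (comparisons with 3N, 9306 genes), with p-values adjusted over all genes by Benjamini-Hochberg. SE and 95% intervals come from these fits. Titles name the experiment of each sample, so experiment was a block in an alternative fit. Samples of the same experiment and different groups deviated together (median correlation of deviations 0.252, lowest 0.024, over 18 pairs). Pairs of different experiments had a median of -0.141 (36 pairs). Deviations from group means cancel out within a group, so this negative value follows from the positive one and adds no evidence. The text names every member that passed a test, and gives values per array for members called between siRNAs, the 6 with the largest called difference between 4N and 2N cells, and members called in no comparison. Values of Bub1b and Dsn1 beyond this rule were chosen after they were seen. Tested on simulated data with 100 changed genes of each size for control 4N against 2N cells, the 12-array fit of 9146 genes recovered 33% of changes of 0.5 and 82% of changes of 1 on the log2 scale, with 9 false calls. The simulated arrays varied independently, unlike arrays of the same experiment here, and few genes were changed. These recovery rates therefore do not describe the comparisons of siYFP with control, where many more genes were called. The number of arrays limits the precision. Alternatives were background correction, scaling, filters, the deposited normalized table, the block and leaving out each array.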

Additional observations from a re-analysis of the deposited data

How the results depend on the processing

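Of 91 calls of a member in a comparison, 75 held in all alternatives other than leaving out an array, 70 in all fits without 1 array and 68 in both, and 0 changed sign. The 16 calls of 4N against 2N control cells held in each. With the replicate block (experiment) the members called between siYFP and control in 4N cells came to 6, between 4N and 3N control cells to 1 and between 4N and 3N siYFP cells to 4. Beside the calls named in the report, the block changed no other call of a member. The offset of 50 and the filter on probes detected on every array gave 5 each for siYFP against control in 4N cells, with Cenph and Dsn1 added. For 4N against 3N control cells, no background correction, the offset of 50, the authors' processed values and that filter gave 1 each, which was Cenpa. For 4N against 3N siYFP cells, median scaling and experiments 1 and 2 only gave 1 each. Leaving out 1 array gave 0 to 4 members for siYFP against control in 4N, 4 to 7 in 2N and 1 to 3 in 3N cells, and 0 to 2 for 4N against 3N siYFP cells. Median scaling turned the split of all calls of siYFP against control in 2N cells to 695 higher and 1296 lower, compared with 1001 and 953 after quantile normalization, with a median over all genes of -0.11 compared with -0.01. In 4N cells it gave 695 and 889, compared with 899 and 847, and in 3N cells 475 and 690, compared with 601 and 602. For siYFP cells it gave 312 higher and 83 lower in 4N against 2N cells, compared with 323 and 164, and 351 and 114 in 3N against 2N cells, compared with 351 and 217. A fit with slide as a block was not run, since no slide is given. The cause of these changes was not tested. Without background correction the difference of Nsl1 between 4N and 2N siYFP cells was 0.25, compared with 0.56.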
